A study of Mus musculus with 6 samples.

Results

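Fibroblasts make the connective tissue of the pancreas and of its tumours. Resident fibroblasts and stellate cells become activated by ligands such as PDGF and TGF-beta, secrete collagen-rich matrix, and in part turn into myofibroblasts, which contract through smooth muscle proteins. Pancreatic ductal tumours are known for dense stroma of this kind. The 10 genes described here stand for those states: Acta2 and Tagln of the contractile apparatus, Fap, Lrrc15 and Pdpn of the activated cell surface, the growth factor receptors Pdgfra and Pdgfrb, and the matrix genes Dcn, Lum and Dpt. They were measured by all probe sets that the platform annotation gives to one of these symbols alone, 17 in all, and for each gene the probe set with the highest mean over the 6 arrays is used. They are 10 of the 18193 genes that the array measured with such probe sets.

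RNA came from cells labelled pancreatic tumor cell, from mice of strain C57BL/6 aged 11 weeks. All 6 samples carried the tumour alleles that the labels write as KeasG12D/+, p53f/f and ptf1a-Cre, so that Cre is driven from a gene of the pancreatic epithelial lineage. The 3 samples with the genotype wt have Msi1, which encodes the RNA-binding protein Musashi 1, and are called wild-type here, although they carry the tumour alleles too. The 3 samples with the genotype Msi1 -/- are called Msi1-null. Each sample was hybridised to 1 Affymetrix array, and the number of arrays limits the precision. The descriptions carry the numbers 3, 4 and 6 in both genotypes, after a prefix that names the mouse, but do not say whether these mark single animals or how tumour cells were separated from stroma, and p-values therefore cover only the spread among the samples at hand.

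The values are the deposited intensities, in arbitrary linear units with a median between 159.2 and 164.31 per array. An intensity is called dim where it lies under the array background, taken per array as the 95th percentile of 83 olfactory, vomeronasal and taste receptor probe sets, which ran from 162.04 to 189.08 over the arrays. The brightest Msi1 probe set read 144, 150.44 and 257 in wild-type and 141, 168 and 127 in Msi1-null arrays. The groups overlapped at all 3 Msi1 probe sets, and their place relative to the deleted part is not known here, so they check nothing. Msi1-null replicate 1 stood apart with the lowest array weight, limma's estimate of how closely an array follows the fit, at 0.34, followed by wild-type replicate 1 at 0.611, against 1.123 to 1.75 for the others. The ratio of 3' over 5' signal at the Gapdh control probe sets reflects RNA quality and was lowest in Msi1-null replicate 1 (1.384) and highest in wild-type replicate 2 (1.858). Markers of tumour epithelium were above background in all 6 arrays for 11 of 11 genes, and so were 9 of the 10 fibroblast genes. Transcripts of both kinds were therefore read in every sample. In such RNA, fewer cells of a type and less RNA per cell cannot be told apart.

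The 10 genes did not differ in a common direction between the genotypes. Of these, 5 had lower and 5 had higher means in Msi1-null arrays, where 49.7% of all genes had lower means. The median log2 difference, Msi1-null minus wild-type on the log2(intensity + 1) scale, was 0.04 over the 10 genes and 0.0006 over all genes. Leaving out Msi1-null replicate 1 turned it to -0.139, and leaving out Msi1-null replicate 2 gave 0.254. With limma and Benjamini-Hochberg adjustment over 45037 probe sets, 0 of the 10 had an adjusted p under 0.05, against 0% of all genes. At an unadjusted p under 0.05 there were 2 of the 10, Lrrc15 lower and Dpt higher, against 3.46% of all genes and 3.01% of all probe sets (1355 of them). The groups did not overlap for 1 of the 10, Lrrc15, against 8.28% of all genes in either direction and 4.28% in that of Lrrc15, lower in Msi1-null arrays.

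**Figure D1:**
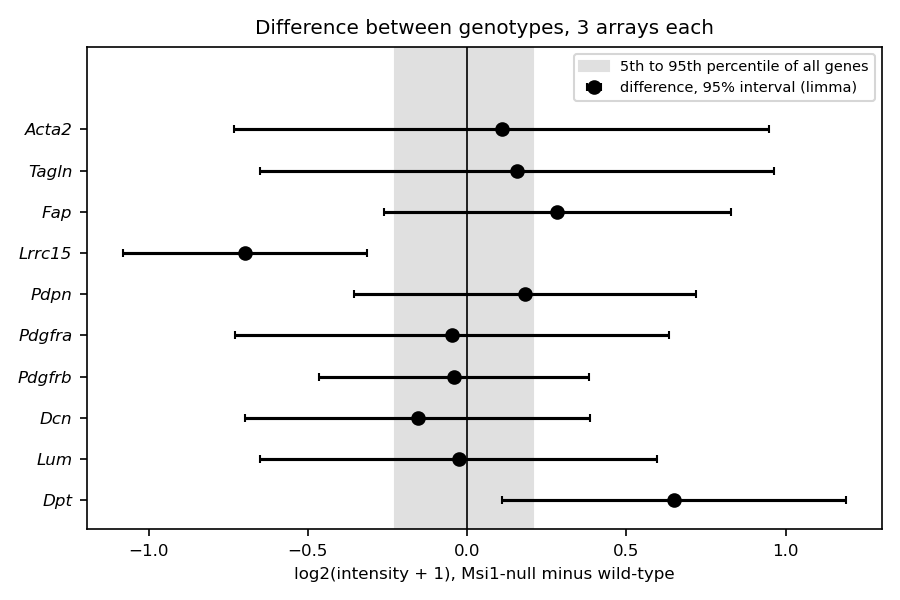
Log2 differences of the 10 genes between Msi1-null and wild-type arrays (x axis, log2(intensity + 1), 3 arrays per genotype) with 95% intervals from limma as bars. The grey band spans the 5th to 95th percentile of all 18193 genes, from -0.23 to 0.21; the intervals of Lrrc15 and Dpt leave out 0 before any adjustment, on opposite sides.

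Lrrc15 encodes a leucine-rich repeat membrane protein that TGF-beta induces in fibroblasts and that marks myofibroblasts of tumour stroma. It read 349, 246 and 296 in wild-type replicates 1 to 3 and 196, 148.0 and 204 in Msi1-null replicates 1 to 3. Every Msi1-null array was below every wild-type array, and Msi1-null replicate 2 was also under the array background. The means were 297 ± 51.6 and 183 ± 30.4 (SD, n = 3), which is a log2 difference of -0.70 ± 0.16 (SE), with a 95% interval from -1.08 to -0.31. The adjusted p was 0.9997 (limma), and the exact two-sided permutation p of 0.1 is the smallest that 3 against 3 arrays allow. Of all genes 0.616% had a larger difference in size, and 18 had a smaller unadjusted p. Lrrc15 had been singled out in earlier work on these arrays by its size, so its place among all genes is a description.

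The other, dimmer Lrrc15 probe set gave the same order of groups. It read 233, 178 and 182 in wild-type and 139.9, 118 and 142 in Msi1-null arrays. All 3 wild-type values were above the array background and all 3 Msi1-null values were under it, so the Msi1-null level is only a bound. The log2 difference of the values as read was -0.56 ± 0.12 (SE; adjusted p = 0.9997, limma). Measured against the background of each Msi1-null array, the wild-type level was at least 1.14-fold higher, a bound without a test. Both probe sets read the same 6 RNA samples, so they are not independent evidence for the difference.

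Dpt encodes dermatopontin, a matrix protein that binds decorin and is known as a gene of resident fibroblasts in many organs. It read 458, 628 and 443 in wild-type arrays and 1068, 599 and 772 in Msi1-null arrays. The groups overlapped by a single pair, since Msi1-null replicate 2 was below wild-type replicate 2. The log2 difference was 0.65 ± 0.23 (SE), with a 95% interval from 0.11 to 1.19, an adjusted p of 0.9997 (limma) and an exact two-sided permutation p of 0.2. The highest value came from Msi1-null replicate 1, the array with the lowest weight, and without that array the difference was 0.43. The unadjusted limma p, 0.0243 over all arrays, was 0.0614 without it. Leaving out wild-type replicate 1 gave 0.0721, and leaving out wild-type replicate 3 gave 0.0793.

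**Figure D2:**
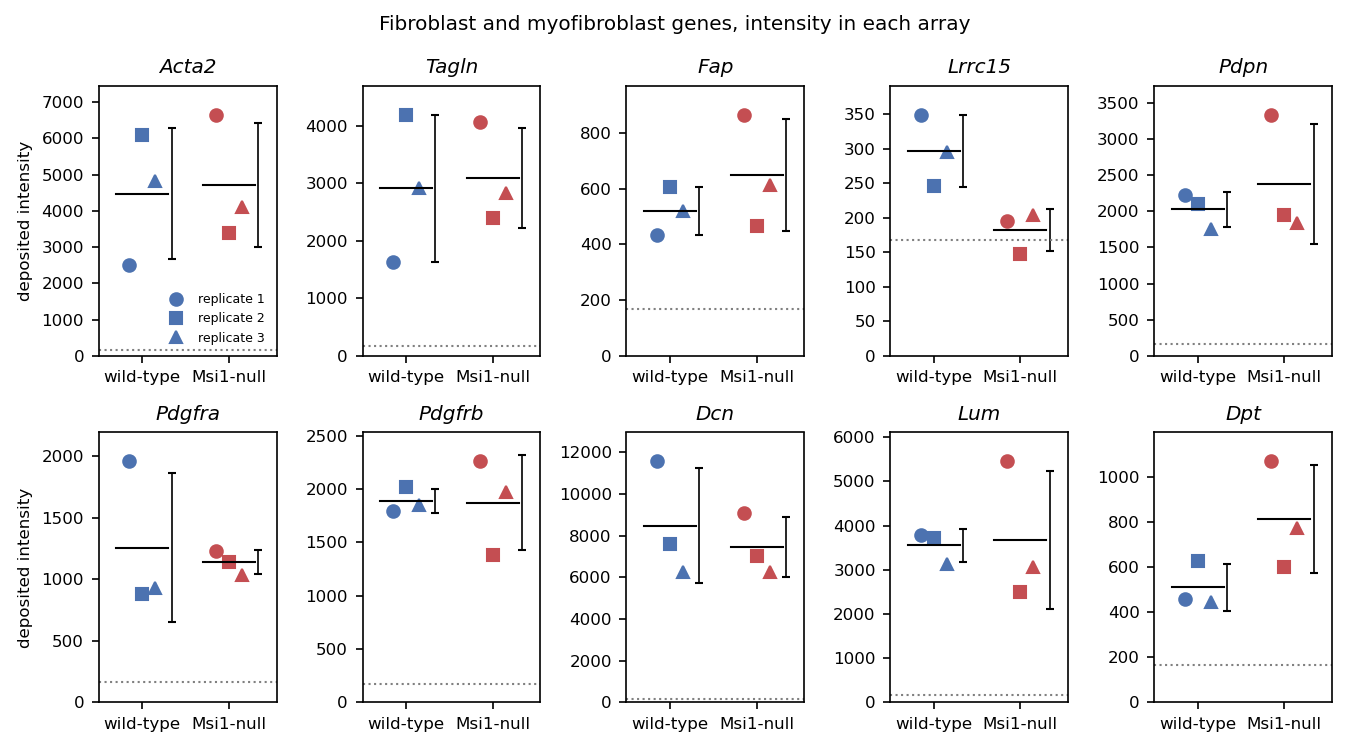
Deposited intensity (y axis, linear, from 0) of each gene in the 3 wild-type and the 3 Msi1-null arrays. Symbols are replicates, horizontal lines are group means, bars are SD and the dotted line is the mean array background; only Lrrc15 has groups that do not overlap, and Msi1-null replicate 1 is highest for 6 of the 10 genes.

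The contractile genes varied widely between arrays of the same genotype and had the largest SEs of the 10. Acta2, smooth muscle alpha-actin and the usual marker of myofibroblasts, read 2513, 6093 and 4824 in wild-type arrays and 6647, 3380 and 4117 in Msi1-null arrays. Both further Acta2 probe sets were dim in every array, with log2 differences of -0.11 ± 0.21 and 0.03 ± 0.04 (SE). Tagln, the actin-binding protein transgelin, read 1627, 4185 and 2920 in wild-type arrays and 4067, 2396 and 2822 in Msi1-null arrays. For both genes wild-type replicate 1 was lowest, wild-type replicate 2 and Msi1-null replicate 1 were highest, and the groups overlapped. Their log2 differences were 0.11 ± 0.36 and 0.16 ± 0.34 (SE). The 95% intervals, from -0.73 to 0.95 and from -0.65 to 0.96, span a wide range, and only 1.82% and 2.08% of all genes had a larger SE. The signs of both differences rested on single arrays: without wild-type replicate 1 they were -0.26 and -0.21, and without Msi1-null replicate 1 they were -0.17 and -0.06.

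Acta2 and Tagln followed each other across the arrays. Over the 6 arrays their log2 values had a Pearson r of 0.98 (exact permutation p = 0.00278) and a Spearman rho of 0.94 (exact permutation p = 0.0167). Without the arrays farthest from the Acta2 median, wild-type replicate 1 and Msi1-null replicate 1, r was 0.96. Among the 45 pairs of the 10 genes this was the highest r, but after Benjamini-Hochberg adjustment over the pairs its p was 0.125 for r and 0.375 for rho. Of the 45 pairs, 0 passed 0.05 after this adjustment (exact permutation).

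Transcription of smooth muscle genes is known to run through serum response factor, which binds CArG boxes, and TEAD factors, which bind the MCAT element. The upstream sequence of Acta2 is shown because of its high r with Tagln, and that of Lrrc15 because its groups did not overlap. The sequences are from RefSeq, build GRCm38.p6, and hold the 250 bases before the transcription start, on the minus strand of chr19:34255374-34255623 for Acta2 and of chr16:30283255-30283504 for Lrrc15. Capitals mark CArG boxes with at most 1 base other than A or T between the outer CC and GG, and the element CATTCC on either strand.
Acta2: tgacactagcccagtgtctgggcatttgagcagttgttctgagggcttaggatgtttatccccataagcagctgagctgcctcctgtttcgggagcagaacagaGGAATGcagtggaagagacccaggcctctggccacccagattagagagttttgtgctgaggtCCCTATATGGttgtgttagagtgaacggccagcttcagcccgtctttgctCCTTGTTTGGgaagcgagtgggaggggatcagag
Lrrc15: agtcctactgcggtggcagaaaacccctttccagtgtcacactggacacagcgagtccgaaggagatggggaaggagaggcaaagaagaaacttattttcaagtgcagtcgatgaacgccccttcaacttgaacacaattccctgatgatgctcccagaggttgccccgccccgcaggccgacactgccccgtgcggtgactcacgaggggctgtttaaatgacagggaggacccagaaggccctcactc
The Acta2 window held 2 such CArG boxes, starting 84 and 34 bases before the start, each with 1 base outside A and T, and 1 CATTCC element, starting 146 bases before it. Of 32851 RefSeq windows of this length, 8.59% held at least 1 such CArG box, 0.67% held at least 2 and 12.6% held CATTCC. The Lrrc15 window held neither element, nor did those of Pdgfra, Pdpn and Dpt. The windows of these 5 of the 10 genes were searched, and those of Tagln, Fap, Pdgfrb, Dcn and Lum were not. A match of letters is a description and not a binding site.

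The remaining genes of the activated surface did not differ beyond their spread. Fap, a membrane protease of activated fibroblasts, read 433, 608 and 520.04 in wild-type and 864, 466 and 613 in Msi1-null arrays. Its log2 difference was 0.28 ± 0.23 (SE; 95% interval from -0.26 to 0.83), and without Msi1-null replicate 1 it was 0.05. Pdpn encodes podoplanin, a surface glycoprotein of activated fibroblasts that lymphatic endothelium carries too. It read 2221, 2099.87 and 1758 in wild-type and 3333, 1952 and 1842 in Msi1-null arrays. Its groups overlapped, with a log2 difference of 0.18 ± 0.23 (SE; 95% interval from -0.36 to 0.72) that was -0.09 without Msi1-null replicate 1. Of 4 measured markers of lymphatic endothelium 4 had lower means in Msi1-null arrays, with a summed intensity of 1526 to 3348 in wild-type and 1444 to 2193 in Msi1-null arrays, and 1 of the 4, Prox1, was dim by its mean. Their part in the Pdpn values was not tested.

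The PDGF receptors gave means that lay close together. Pdgfra, the receptor of matrix-forming fibroblasts, read 1959, 884 and 932 in wild-type and 1234, 1142 and 1038 in Msi1-null arrays. Wild-type replicate 1 alone was high, at over 1.5 times every other array, and the groups overlapped. The log2 difference was -0.05 ± 0.29 (SE; 95% interval from -0.73 to 0.64) and turned to 0.32 without wild-type replicate 1. The 2 further Pdgfra probe sets were also highest in that array, at 194 and 311. Pdgfrb, the receptor that pericytes carry as well, read 1798, 2014 and 1853 in wild-type and 2258, 1385 and 1969 in Msi1-null arrays. Its log2 difference was -0.04 ± 0.18 (SE; 95% interval from -0.46 to 0.38), and its sign depended on single arrays: without Msi1-null replicate 2 it was 0.16. At its other probe set it was 0.04 ± 0.19 (SE).

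Dcn and Lum encode decorin and lumican, small leucine-rich proteoglycans that bind collagen fibrils, and on chromosome 10 they are neighbours with 0 protein-coding genes between them. Dcn read 11571, 7608 and 6280.19 in wild-type and 9091, 7013 and 6277 in Msi1-null arrays. The other Dcn probe set was above background in 1 array only, with a log2 difference of -0.17 ± 0.09 (SE). Lum read 3795, 3726 and 3125 in wild-type and 5449.73, 2497 and 3072 in Msi1-null arrays. The neighbours differed in their highest array, which was wild-type replicate 1 for Dcn and Msi1-null replicate 1 for Lum, and both had overlapping groups. The log2 differences were -0.16 ± 0.23 for Dcn and -0.03 ± 0.27 for Lum (SE), with 95% intervals from -0.70 to 0.39 and from -0.65 to 0.60. Without wild-type replicate 1 they were 0.09 and 0.03, so neither sign held.

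Across the arrays the genes did not rise and drop as a block. Of the 45 pairs 31 had a positive and 14 a negative r, from -0.75 to 0.98 with a median of 0.41, over 6 arrays. Pdgfra and Dcn, both highest in wild-type replicate 1, had an r of 0.86 (exact permutation p = 0.0361, adjusted 0.325) and a rho of 0.60 (exact permutation p = 0.242, adjusted 0.68), and r was 0.87 without wild-type replicates 1 and 2. Pdgfra ran against Acta2 and Tagln, with r of -0.69 and -0.75 (exact permutation p = 0.113 and 0.0792) and rho of -0.43 and -0.66 (exact permutation p = 0.419 and 0.175). Without the arrays farthest from the Tagln median, wild-type replicates 1 and 2, r with Tagln was 0.43. Without those farthest from the Acta2 median, wild-type replicate 1 and Msi1-null replicate 1, r with Acta2 was -0.98. Different arrays were left out, so these values do not compare Acta2 with Tagln. Lrrc15 had no r above 0.42 or below -0.60 with the other genes.

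**Figure D3:**
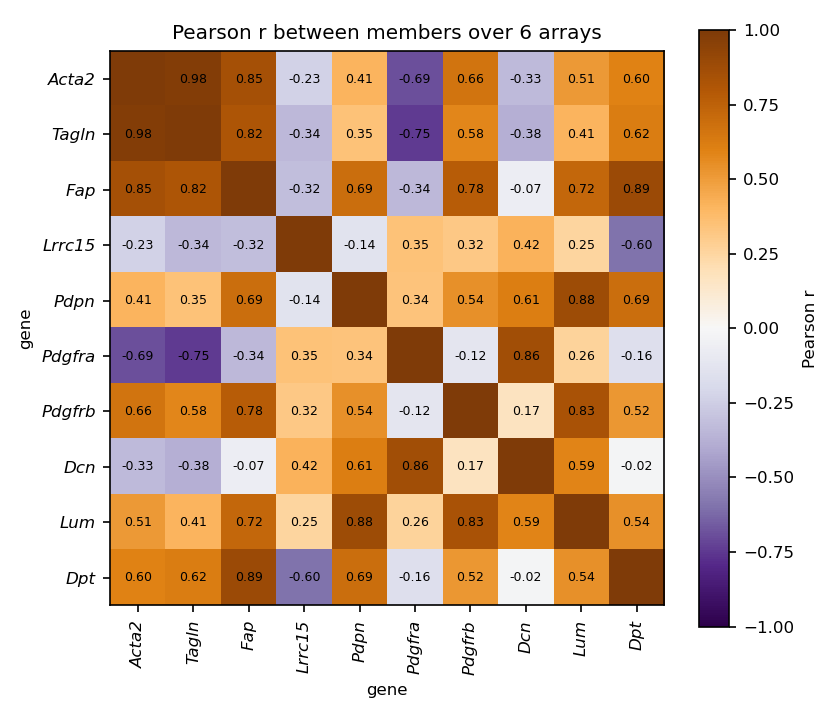
Pearson r between the log2 values of each pair of genes over the 6 arrays (colour and printed value, from -1 to 1). Acta2 and Tagln reach 0.98, Pdgfra runs against both, and the row of Lrrc15 holds values between -0.60 and 0.42.

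Contrasts between the genes within an array remove what all of them share in that array. The log2 value of Lrrc15, centred on its mean over the arrays, minus the mean of the other 9 genes, was 0.71, -0.01 and 0.53 in wild-type replicates 1 to 3. It was -0.72, -0.39 and -0.12 in Msi1-null replicates 1 to 3, so the groups did not overlap here either. The same contrast for Dpt was -0.47, -0.12 and -0.43 in wild-type and 0.39, 0.23 and 0.40 in Msi1-null arrays, without overlap. The mean of Acta2 and Tagln minus that of Pdgfra and Dcn was -1.47 in wild-type replicate 1, while the other 5 arrays spanned -0.23 to 0.72, with overlapping groups. These contrasts were chosen after the values were seen and have no test; they show unequal differences, not which gene differed.

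**Figure D4:**
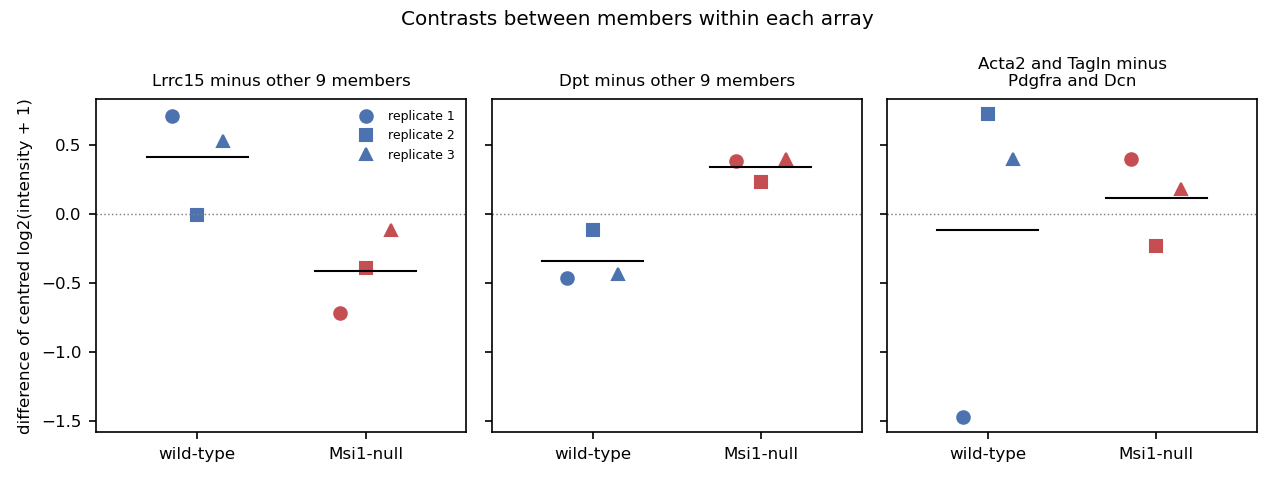
Differences between centred log2(intensity + 1) values within each array (y axis) for Lrrc15 and for Dpt against the other 9 genes, and for Acta2 and Tagln against Pdgfra and Dcn. Points are arrays and lines are group means; Lrrc15 and Dpt separate the genotypes in opposite directions, and wild-type replicate 1 lies apart in the last panel.

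Some further contractile genes were highest in the same arrays as Acta2 and Tagln. Myh11, smooth muscle myosin heavy chain, read 229, 913 and 313 in wild-type and 2113, 203 and 244 in Msi1-null arrays. Cnn1, the actin-binding calponin, read 174, 905 and 267 in wild-type and 1202, 168 and 209 in Msi1-null arrays. For both, wild-type replicate 2 and Msi1-null replicate 1 were again the highest arrays, whereas Myl6 was highest in Msi1-null replicate 3. Of 16 measured contractile genes 3 had lower and 13 higher means in Msi1-null arrays, with a median log2 difference of 0.06; 0 passed the adjusted threshold and 0 the unadjusted one (limma). That median was -0.253 without Msi1-null replicate 1, -0.135 without wild-type replicate 1 and 0.402 without Msi1-null replicate 2, so its sign rested on single arrays. Among the genes above background by their mean, those of smallest unadjusted p were Cald1 (-0.13 ± 0.11), Myl6 (0.13 ± 0.12), Flna (-0.10 ± 0.12) and Synpo2 (0.35 ± 0.60, SE). Synpo2 was above background in 2 arrays only. It read 562 in Msi1-null replicate 1 and 112 to 235 in the others.

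Markers of pericytes and vascular smooth muscle had their highest sums in the same arrays. Of the 11 measured, which include Myh11, Cnn1 and Des of the contractile list, 10 had higher means in Msi1-null arrays, and the median log2 difference was 0.08. Without Msi1-null replicate 1 it was -0.121, without wild-type replicate 1 -0.093 and with array weights -0.11. Their summed intensity was 6601, 10877 and 8367 in wild-type and 15969.9, 6658 and 8306 in Msi1-null arrays. All 11 were above background in every array, so Acta2 and Tagln were read beside such cells' markers, and the part of these cells in their values was not tested. Rgs5, a pericyte gene, and Heyl, a Notch target, differed by 0.25 ± 0.28 and 0.20 ± 0.12 (SE).

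Secreted matrix genes of fibroblasts likewise did not share a direction. Of 25 measured genes 8 had lower and 17 higher means, with a median log2 difference of 0.06 that was -0.116 without Msi1-null replicate 1, -0.021 without wild-type replicate 1 and 0.244 without Msi1-null replicate 2. Of the 25, 0 passed the adjusted threshold (limma). Col12a1, a collagen that associates with fibrils, was the only one of the 25 with groups that did not overlap and with an unadjusted p under 0.05. Of all genes 8.28% had groups without overlap, 4.28% lower in Msi1-null arrays, and 3.46% had such a p. It read 2726, 3511 and 3273 in wild-type and 2356, 2121 and 2177 in Msi1-null arrays. Its log2 difference was -0.51 ± 0.12 (SE; adjusted p = 0.9997, limma). Thbs2 and Postn, matricellular proteins of activated stroma, differed by -0.65 ± 0.31 and -0.44 ± 0.25, and Loxl1, a collagen cross-linking enzyme, by 0.34 ± 0.18 (SE). The Thbs2 and Postn values were lowest in Msi1-null replicate 2, at 619 and 2221. Col1a1, a chain of the main fibrillar collagen, differed by 0.02 ± 0.33 (SE).

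**Figure D5:**
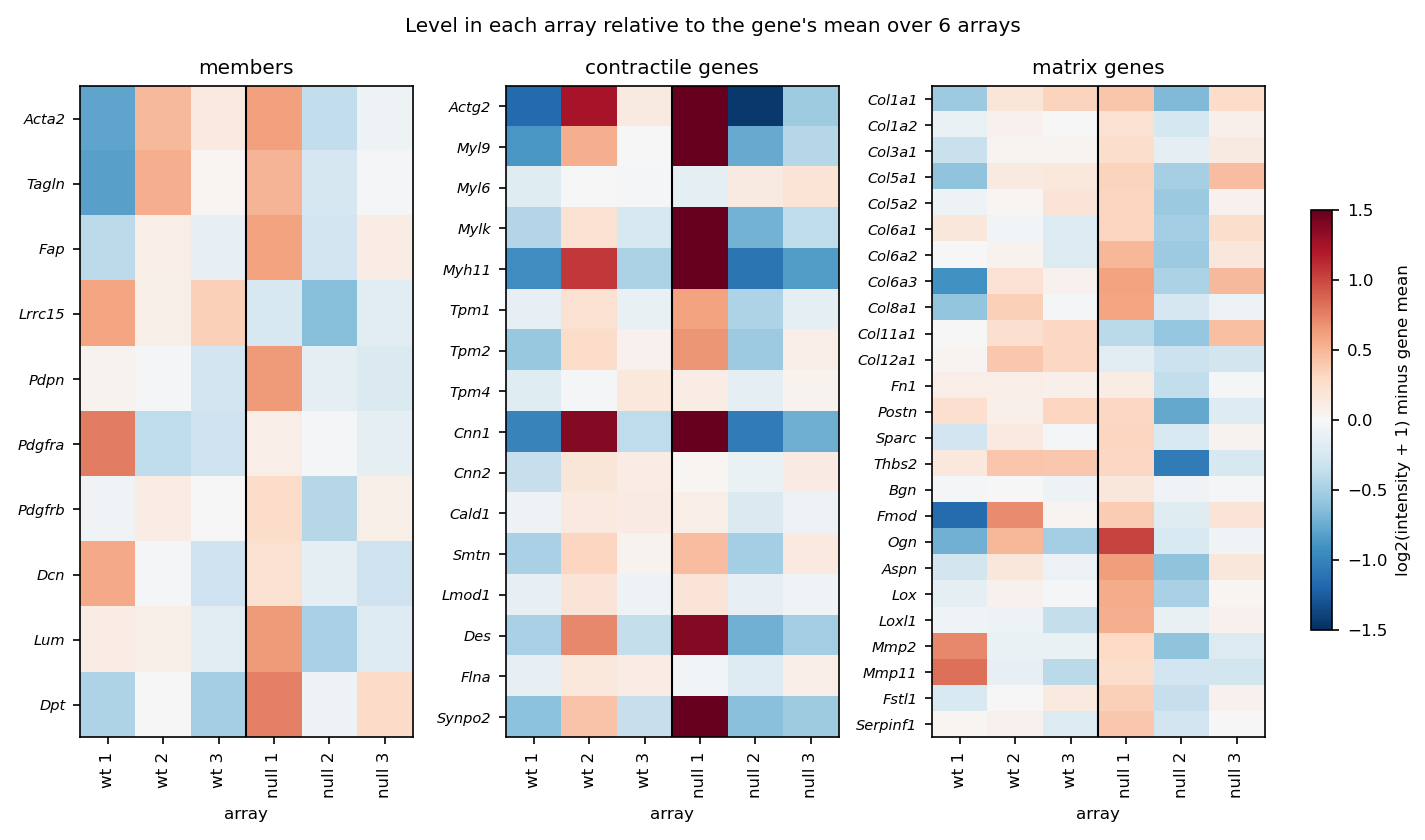
Log2(intensity + 1) of each gene in each array minus the gene's mean over the 6 arrays (colour, cut at -1.5 and 1.5), for the 10 members, the 16 contractile genes and the 25 matrix genes, with wild-type (wt) arrays left of the line and Msi1-null (null) arrays right of it. Msi1-null replicate 1 is highest for 11 of the 16 contractile and 17 of the 25 matrix genes, and Msi1-null replicate 2 is lowest for 10 and 15 of them.

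Genes of resident and inflammatory fibroblasts gave 7 lower and 12 higher means among 19 measured, with a median log2 difference of 0.12, and 0 passed either threshold (limma). Leaving out Msi1-null replicate 1 gave a median of 0.019, wild-type replicate 2 one of 0.053 and wild-type replicate 1 one of 0.257. Clec3b and Mfap4, genes of resident fibroblasts, differed by 0.50 ± 0.23 and 0.56 ± 0.28 (SE), while 7 of the 19 went the other way. Mfap4 read 1190 in Msi1-null replicate 1, against 612 and 635 in Msi1-null replicates 2 and 3. Cxcl14, a chemokine, and Gas1, a surface protein of growth-arrested fibroblasts, differed by -0.38 ± 0.19 and 0.30 ± 0.16 (SE). Ligands and receptors of the PDGF and TGF-beta pathways gave 9 lower and 6 higher means among 15, with a median of -0.10 that was 0.075 without Msi1-null replicate 2 and -0.238 without Msi1-null replicate 1. Thbs1, which can activate latent TGF-beta, was the 1 of the 15 at an unadjusted p under 0.05, against 3.46% of all genes, with -0.34 ± 0.14 (SE), and 0 passed the adjusted threshold (limma). Tgfb3, a TGF-beta ligand, Ltbp1, a latent TGF-beta binding protein, and Pdgfc, a ligand of Pdgfra, differed by 0.43 ± 0.19, -0.26 ± 0.15 and -0.41 ± 0.26 (SE).

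Markers of other cells were read beside Lrrc15 and Dpt. Acinar markers, the digestive enzymes, had lower means in Msi1-null arrays for 9 of 9, as Lrrc15 did, with a median of -1.49. Their summed intensity was 37368, 58989 and 39122 in wild-type replicates 1 to 3 and 11644, 13920 and 34699 in Msi1-null replicates 1 to 3. Msi1-null replicate 3 thus lay close to wild-type replicates 1 and 3. Without single arrays the acinar median ran from -2.056 to -1.088. Of these 9 acinar markers, 8 had an unadjusted p under 0.05 (limma) and 3 had groups that did not overlap. Of all genes 3.46% had such a p and 8.28% such groups. Tumour epithelium markers gave 7 lower of 11, with a median of -0.02 (0.124 without Msi1-null replicate 1) and sums of 58578 to 66855 and 54785 to 75984. Adipocyte markers gave 4 lower of 4 (median -0.36), and the median was 0.0 without wild-type replicate 2. Their sums were 1989.7 to 5043 in wild-type and 1703 to 2438 in Msi1-null arrays. Only 2 of these 4 were above background by their mean. Blood endothelial markers had higher means for 8 of 8, as Dpt did, with a median of 0.28 and overlapping sums of 5000.2 to 6640 in wild-type and 5601 to 8447 in Msi1-null arrays. Leaving out Msi1-null replicate 1 gave a median of 0.139, and wild-type replicate 1 one of 0.153. Lymphocyte markers gave 8 higher of 8 (median 0.32), with sums of 1315 to 1815 and 1555 to 2931. Leaving out Msi1-null replicate 2 gave a median of 0.113, and wild-type replicate 1 one of 0.153. Of these 8, 7 were above background by their mean but only 2 in all 6 arrays. At an unadjusted p under 0.05 (limma) were 2 of the lymphocyte, 1 of the blood endothelial, 1 of the tumour epithelium and 0 of the adipocyte markers. No marker was at 0, since the lowest deposited values lie well above it, and the part of these cells in the Lrrc15 and Dpt values was not tested.

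The lymphatic endothelial median was -0.29 and the macrophage median 0.05 with 6 higher of 10. The mesothelial median was 0.001 with 4 higher of 7, and the stellate cell median 0.08 with 4 higher of 7. Above background by their mean were 3 of 4 lymphatic, 10 of 10 macrophage, 5 of 7 mesothelial and 3 of 7 stellate markers. Of the lymphatic markers 3 had an unadjusted p under 0.05 (limma), all lower, against 3.46% of all genes. They were Flt4, Reln and Prox1, and Prox1 was above background in 0 arrays. Of the stellate markers 1 lower and 1 higher had such a p. The lower one was Reln again, which is in both lists. The higher one was above background in 0 wild-type and 2 Msi1-null arrays. Muscle and nerve markers gave 4 higher of 5 and a median of 0.03. Without Msi1-null replicate 1 the macrophage median was -0.158, the mesothelial -0.039, the stellate -0.004, the muscle and nerve -0.027 and the lymphatic -0.467. Macrophage markers had Msi1-null replicate 1 highest for 9 of 10, the array that was also highest for 6 of the 10 fibroblast genes. Over all 15 lists beside the 10 genes, 0 genes passed the adjusted threshold (limma).

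The genes most like Lrrc15 over the 6 arrays, by Pearson r of log2 values among 12077 genes above background, were Arg2 (0.986), Tnpo1 (0.982), Accs (0.982), Nf1 (0.979), 4930524J08Rik (0.979) and Ctla2a (0.978). Arg2 is the mitochondrial arginase, Tnpo1 a nuclear import receptor and Nf1 a negative regulator of RAS. Of these 6, Arg2 and Ctla2a had the largest log2 differences, -0.86 ± 0.25 and -1.06 ± 0.32 (SE). Those of Tnpo1, Accs, Nf1 and 4930524J08Rik were -0.30, -0.11, -0.19 and -0.11. Picking genes by likeness to Lrrc15, whose groups did not overlap, favours lower Msi1-null means, so these differences are no separate result. The genes most like the mean of the 10 fibroblast genes were Gng2 (0.994), Vstm2l (0.991), Naaa (0.991), Gucy1b1 (0.988), Tpm1 (0.986) and Prrt4 (0.986). Gucy1b1 is a subunit of the nitric oxide receptor guanylate cyclase and Tpm1 a tropomyosin. With only 6 arrays, 44 genes had an r above 0.95 with Lrrc15 and 91 with the mean.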

How the data were processed

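Per the labels, biotin-labelled cRNA from total RNA of 6 samples was read on Affymetrix mouse arrays. The intensity values are the authors' deposited probe set table, made with GCRMA per the submitters' processing notes, with no version or settings given. GCRMA corrects background by probe sequence and normalizes quantiles. Dim probe sets still had sizeable values, such as 118 for the dimmer Lrrc15 probe set in Msi1-null replicate 2. Fold differences of dim genes may therefore be understated. The sources used here do not say whether values were rescaled afterwards. The labels gave groups and replicate numbers. Of 45101 probe sets 64 controls were left out, and 45037 were tested; 34945 had 1 gene symbol, updated through Entrez identifiers, and 932 with several were not named.

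Values were analysed as log2(intensity + 1), with lmFit and eBayes (with a mean-variance trend) of limma 3.58.1, run in R 4.3.3. Genotype was the only term, with Benjamini-Hochberg adjustment at 0.05. The added 1 understates changes of dim genes slightly: a pseudocount of 16 moved the Lrrc15 difference from -0.696 to -0.653. SE is limma's moderated standard error and SD is over arrays. Exact permutation tests of single genes were two-sided and enumerated all 20 assignments of 3 arrays; correlations were permuted over all pairings of the 6 arrays. The fit was tested on simulated data. The 10 genes and the 15 further gene lists (159 of 169 entries measured) were chosen with earlier results of these data known. Beside the 10 genes, the text names up to 4 genes per list by smallest unadjusted p, among those above background by their mean. It also names the 6 genes of highest likeness. Myh11, Cnn1, Col1a1 and Prox1 were chosen after their values were seen. Alternatives were other normalizations, filters at a mean log2 of 7 and 8, prior variances, array weights, a pseudocount of 16, the replicate number as a block, probe sets averaged per gene and each array left out in turn.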

Additional observations from a re-analysis of the deposited data

How the results depend on the processing

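Lrrc15 kept its lower and Dpt its higher mean in Msi1-null arrays under every alternative that gave a value, with log2 differences from -0.83 to -0.55 and from 0.37 to 0.85; the filter at 8 left Lrrc15 out. No member passed the adjusted threshold in any of these fits. Without single arrays 0 to 1 probe sets passed it, the 1 being Ighm without Msi1-null replicate 1, and 0 did otherwise (limma). The count at an unadjusted p under 0.05, 1355 as reported, was 546 with the filter at 8, 2153 with array weights, 2120 with the replicate block and 886 to 2723 without single arrays. Whether the replicate number pairs the samples is not known. Same-numbered deviations correlated at 0.17, -0.091 and 0.282 and the others at -0.257 to 0.058, which cannot decide it with 3 arrays per genotype. The block changed no sign of the 10 genes and no call. With it the unadjusted limma p of Lrrc15 was 0.000337 (adjusted 0.8785), against 0.00333 without it.

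The signs of the smaller differences depended on single arrays, and the cause was not tested. Without single arrays Acta2 ran from -0.261 to 0.377, Tagln from -0.212 to 0.47, Pdgfra from -0.251 to 0.322, Pdgfrb from -0.191 to 0.161, Pdpn from -0.089 to 0.339, Dcn from -0.348 to 0.092 and Lum from -0.352 to 0.211. The number of members with lower means ran from 3 to 8 and the stellate median from -0.036 to 0.087. With array weights Acta2 was -0.261, Tagln -0.175 and Pdgfra 0.11, the stellate median -0.004 and the lymphatic median -0.541. With the filter at 8 the muscle and nerve median was -0.12, with fewer genes tested. Leaving out wild-type replicate 1 and Msi1-null replicate 1 together, the arrays of lowest weight in each group, was added after seeing the data. It gave 2502 probe sets at an unadjusted p under 0.05 and lower means for 8 members. Acta2 was then -0.539, Tagln -0.427, Fap -0.072, Pdgfra 0.262 and Pdpn -0.019, and the medians were -0.216 for matrix, 0.008 for stellate, -0.676 for lymphatic and 0.044 for blood endothelial genes.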
